A study of Drosophila melanogaster with 6 samples.

Results

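The features described here were bright in the wild-type fly ovary and differed moderately between wild-type ovaries and ovaries of an upSET mutant. A feature is one FlyBase transcript identifier on the array, and its level is the deposited log2 intensity. A feature was kept when its wild-type mean was 13 or more, when the mutant mean minus the wild-type mean was at least 0.7 and below 2 in size (1.62-fold to 4-fold), and when the mutant and wild-type values did not overlap. Of 15473 features, 6083 had a wild-type mean of 13 or more, and 167 of these (2.75%) met all limits. In the mutant, 115 of the 167 were lower (1.89% of the bright features) and 52 were higher (0.855%). The same measured values chose the members, so the difference between genotypes is described here and not tested.

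Ovaries came from 2-day-old Drosophila melanogaster females that had been fattened after eclosion. The wild type was the strain OregonG. The mutant strain carries the transposon insertion PBac{WH} in CG9007, the gene named upSET in the sample labels and epic in the design text. Each genotype had 3 separate dissections, each hybridised to 1 single-colour array. How many females went into a dissection is not given in the sources used here. OregonG was not described as the parent of the mutant line, so the insertion and other strain differences cannot be told apart. The 6 arrays had closely matched medians, between 11.2 and 11.3.

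In a fly egg chamber, germline nurse cells make most of the RNA that is handed to the oocyte, and somatic follicle cells around them make yolk and eggshell proteins. RNA of a whole ovary mixes these cells with a muscle sheath, so fewer cells of a type and less RNA per cell cannot be told apart. upSET encodes a SET-domain protein related to mammalian MLL5, and in flies it is known to work with histone deacetylases to limit open chromatin around promoters.

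None of the 167 members could be given a gene name. The gene table used here names 44 features of the array, of which 31 had a wild-type mean of 13 or more, and no one of these 31 met the difference limits. No count by pathway or cell type was therefore possible, and the ovary label was not checked against marker genes. Brightness depends on the probes as well as on the transcript, so a high level is read as a bright feature and not as an abundant transcript.

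The sizes and levels of losses and gains come from the values that chose and split the members, so they are described only. The 115 lower members had a median difference of -0.87 (1.83-fold), and the 52 higher members one of 0.87 (1.83-fold). The quartiles of the losses ran from -1.12 to -0.78 and that of the gains from 0.77 to 1.07. Differences between 0.7 and 1 in size made up 77 of the losses and 34 of the gains, and those between 1 and 1.5 made up 30 and 18. From 1.5 up to the limit of 2 there were 8 losses and 0 gains. All these counts rest on brightness judged in the wild type. The wild-type means of the losses ran from 13.02 to 15.74 with a median of 14.04. Those of the gains ran from 13.06 to 14.53 with a median of 13.48. In the mutant the order was turned, with a median of 12.99 for the losses and 14.47 for the gains. The mean over both genotypes had a median of 13.48 for the losses and 14.004 for the gains, so the gains were the brighter list by that measure. The rule sets this order in part, since a gain starts at 13 or more and ends higher, while a loss may end below 13.

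**Figure D1:**
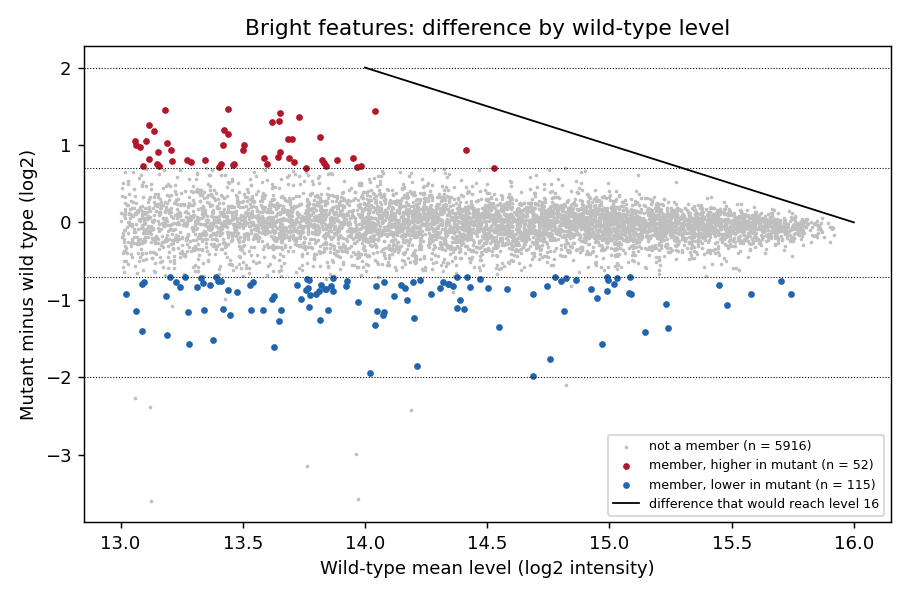
Mutant minus wild-type mean (log2, vertical axis) against the wild-type mean level (log2 intensity, horizontal axis) for the 6083 bright features, with 52 higher members in red, 115 lower members in blue, the other features in grey, dotted lines at differences of 0.7 and 2 in either direction and a solid line where a gain would reach level 16. Of the 52 gains 49 lie below a wild-type level of 14, while losses extend to 15.74.

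The excess of losses lay among the brightest wild-type features. At wild-type means from 13 to 13.5 there were 26 losses and 26 gains among 803 features. From 13.5 to 14 there were 30 losses and 23 gains among 1009 features. From 14 up there were 59 losses and 3 gains among 4271 features, and from 15 up there were 13 losses and 0 gains among 1708. The difference itself narrowed with level over all bright features, with an SD of 0.41 at 13 to 13.5 and of 0.18 from 15 up. The highest value on any array was 15.99, beside the log2 ceiling of 16 of a 16-bit scanner. The part of this ceiling in the shortage of gains was not tested.

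The direction of the excess turned with the genotype on which brightness was judged. With a mutant mean of 13 or more in place of the wild-type mean, and all other limits kept, 124 features were higher and 57 lower. With the mean over both genotypes at 13 or more, 83 were higher and 92 lower. With both group means at 13 or more, 52 were higher and 57 lower. The change in the counts follows from features that crossed level 13 between the genotypes. Of the 115 losses, 58 ended below 13 in the mutant. In the other direction, 72 gains of 0.7 to 2 began below 13 in the wild type and ended at 13 or more, and these are not members. Among the brightest features the same turn was seen, with 51 gains and 19 losses at a mutant mean of 14 or more, and 27 gains and 32 losses at a mean over both genotypes of 14 or more. Among these 4 ways to judge brightness, an excess of losses as large as 115 against 52 was found with the wild-type mean alone.

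**Figure D2:**
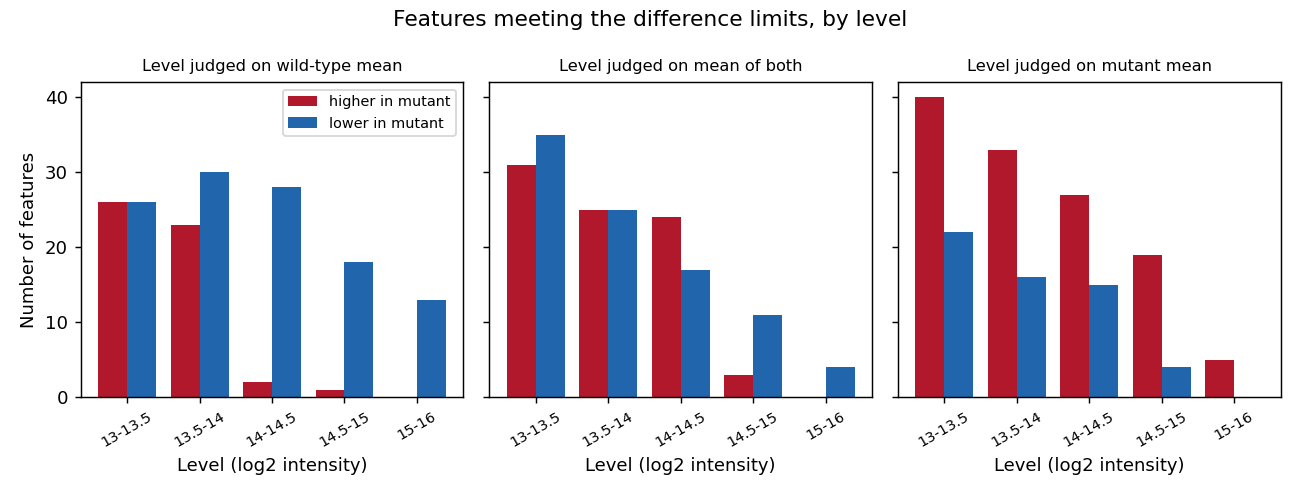
Number of features (vertical axis) that met the difference limits in each range of level (log2 intensity, horizontal axis), higher in the mutant in red and lower in blue, with the level judged on the wild-type mean, on the mean of both genotypes or on the mutant mean. From level 14 up there were 3 gains and 59 losses by the wild-type mean, 27 and 32 by the mean of both, and 51 and 19 by the mutant mean.

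The members' levels on each array are given as a description, since the rule asked for separate genotypes on these same arrays. For the 52 gains, the median level was 13.49, 13.45 and 13.49 on wild-type replicates 1, 2 and 3, and 14.40, 14.45 and 14.503 on mutant replicates 1, 2 and 3. For the 115 losses, the median level was 14.02, 14.05 and 13.96 on the wild-type arrays and 13.01, 13.12 and 13.004 on the mutant arrays. A median over a list does not show the scatter of single features between arrays. Among the gains, mutant replicates 1, 2 and 3 were the highest mutant array in 13, 17 and 22 features. Among the losses, they were the lowest mutant array in 46, 31 and 38 features. Over all 6083 bright features they were the highest in 1877, 2020 and 2186, and the lowest in 2084, 2007 and 1992.

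**Figure D3:**
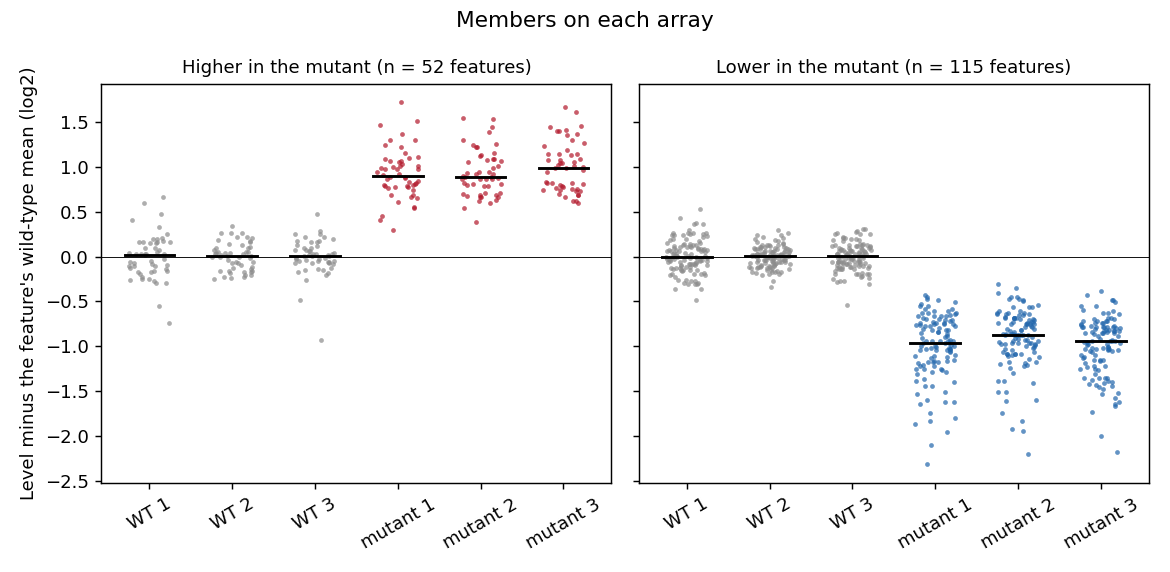
Level of each member on each array minus its own wild-type mean (log2, vertical axis) for 52 higher and 115 lower members, with a black bar at the median of each array. The mutant medians lie between 0.89 and 0.99 for the gains and between -0.96 and -0.88 for the losses, on all 3 mutant arrays.

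The rule that the genotypes must not overlap acts on the spread between replicates, so the spread is given as a description. Among the losses the median SD (n = 3) was 0.14 in the wild type against 0.20 in the mutant, and the mutant SD was the larger in 73 of 115 (63.5%). Among the gains it was 0.17 in the wild type against 0.14 in the mutant, and the mutant SD was the larger in 23 of 52 (44.2%). Over all 6083 bright features it was 0.12 and 0.14, in that order of genotypes, and the mutant SD was the larger in 3301 (54.3%). The gap between the nearest mutant and wild-type values had a median of 0.58 in the gains and 0.56 in the losses, and it exceeded 0.5 in 35 gains and 71 losses. The smallest gaps were 0.06 among the gains and 0.08 among the losses. Groups did not overlap in 27.9% of all bright features, 11.1% with the mutant higher and 16.8% with the mutant lower.

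The limma fit over all 15473 features called 163 of the 167 members at an adjusted p of 0.05, 51 gains and 112 losses. It called 15.4% of all features, 8.05% as higher and 7.3% as lower. Of the bright features it called 6.69%, 2.45% as higher and 4.24% as lower. The rule used the same contrast, so nothing is read from the members' share. The median standard error of a member's difference was 0.15. Each of the 4 members not called had 1 genotype with widely spread arrays. The 1 gain among them had wild-type values of 12.42, 13.42 and 13.63 and mutant values of 14.04, 13.94 and 14.21. The 3 losses had differences of -0.98, -0.82 and -0.79, with standard errors of 0.29, 0.26 and 0.27. In 2 of these losses mutant replicate 3 was the low array, at 13.28 against 14.22 and 14.40 on the other mutant arrays, and at 12.93 against 13.86 and 13.86.

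The largest gain among the members was transcript FBtr0081557. Its level was 13.60, 13.42 and 13.29 on the wild-type arrays and 14.90, 14.97 and 14.83 on the mutant arrays. The groups were 1.23 apart at their nearest values, with little spread in the mutant. The means were 13.44 ± 0.16 (SD, n = 3) and 14.90 ± 0.07, a difference of 1.46 (SE 0.13), or 2.76-fold. The next largest gain, FBtr0086927, had 13.65, 12.98 and 12.92 in the wild type and 14.69, 14.57 and 14.62 in the mutant. Wild-type replicate 1 was the high array of its genotype and still lay 0.92 below the lowest mutant array. Its difference was 1.45 (SE 0.20), or 2.72-fold, and without that array it was 1.68.

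The largest loss was transcript FBtr0081210. Its level was 14.67, 14.71 and 14.69 on the wild-type arrays and 12.82, 12.76 and 12.51 on the mutant arrays. The wild-type arrays were almost level, and the groups were 1.85 apart at their nearest values. The means were 14.69 ± 0.02 (SD, n = 3) and 12.70 ± 0.16, a difference of -1.99 (SE 0.13), or 3.97-fold. It lay just inside the upper limit, and without single arrays it ran from -2.05 to -1.90. The next largest loss, FBtr0089292, had 13.73, 14.12 and 14.21 in the wild type and 11.70, 11.82 and 12.71 in the mutant. Mutant replicate 3 was the high array of its genotype. Its difference was -1.94 (SE 0.27), or 3.85-fold, and it ran from -2.26 to -1.76 without single arrays. The tables used here pair none of these 4 identifiers with a gene.

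**Figure D4:**
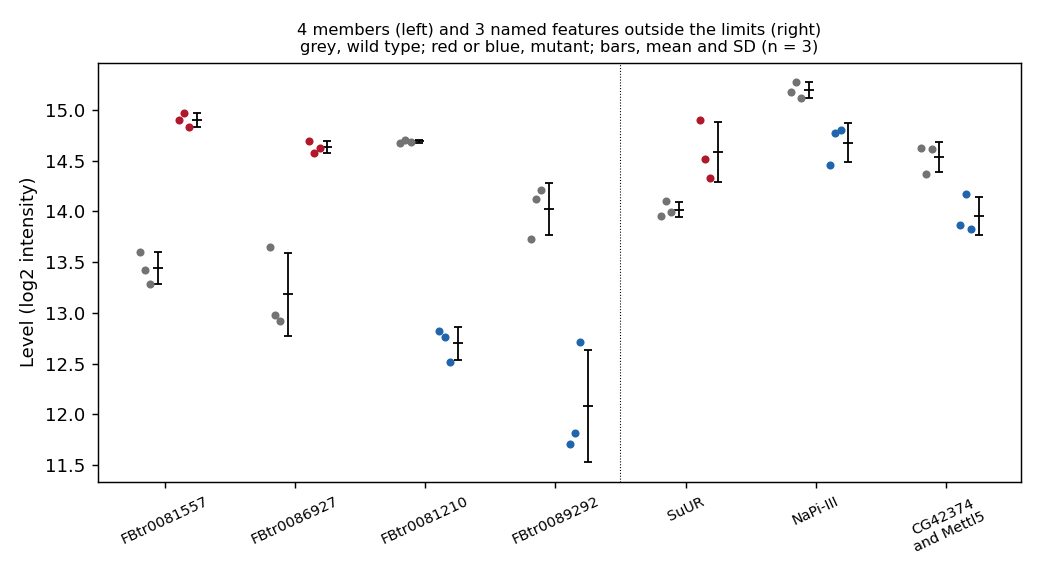
Level (log2 intensity, vertical axis) on each of 3 wild-type arrays (grey) and 3 mutant arrays (red where higher, blue where lower) for the 2 largest gains, the 2 largest losses and 3 named features outside the difference limits, with mean and SD beside the points. The members' genotypes are 0.92 to 1.85 apart at their nearest values, and those of the named features 0.20 to 0.32.

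The limits cut through a continuous range on the low side. The smallest gain inside was 0.701, and the largest left out was 0.699. The smallest loss inside was -0.704, and the largest left out was -0.699. By level, the dimmest gain inside had a wild-type mean of 13.06 and the brightest left out one of 12.98, while for losses the values were 13.02 and 12.99. Overlap of the groups removed 5 features that met the other limits, all lower in the mutant. Beyond a difference of 2, where the groups of bright features stayed apart, there were 8 losses from -2.10 to -3.59 and 0 gains by the wild-type mean. This count turned with the genotype too, since a mutant mean of 13 or more in place of the wild-type mean gave 38 gains and 0 losses.

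Among bright features with a gene name, the 3 with differences of at least 0.5 in size fell 0.12 to 0.18 short of the lower limit. SuUR, a chromatin gene that holds back replication of heterochromatin in polytene cells, had 13.96, 14.10 and 13.99 in the wild type and 14.90, 14.51 and 14.32 in the mutant. Its difference of 0.56 (SE 0.16) was 0.14 short of the limit, and the mutant arrays were the more widely spread. NaPi-III, a phosphate transporter gene, had 15.18, 15.27 and 15.12 in the wild type and 14.45, 14.77 and 14.80 in the mutant. Its difference was -0.52 (SE 0.14), with mutant replicate 1 as the low array, and it was -0.41 without that array. Mettl5, which encodes an enzyme that methylates ribosomal RNA, shares its transcript with CG42374, and the transcript had 14.63, 14.37 and 14.62 in the wild type and 13.87, 14.17 and 13.83 in the mutant. Its difference was -0.58 (SE 0.14). The genotypes did not overlap in any of these 3, as in 27.9% of bright features. That share counts features of any difference, while these 3 were picked for one of at least 0.5.

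Features chosen on 4 arrays had smaller median differences, in the same direction, on the 2 arrays left out. The limits were applied to 4 arrays, leaving out 1 of each genotype, and the difference was then read from the 2 arrays left out, in all 9 combinations. Between 47 and 66 gains and between 120 and 139 losses were chosen in this way. These counts rest on the same wild-type level limit and add nothing on the balance of losses and gains. The median gain was 0.82 to 0.88 on the 4 arrays and 0.60 to 0.82 on the arrays left out. The median loss was -0.91 to -0.85 on the 4 arrays and -0.83 to -0.67 on the arrays left out. The direction on the arrays left out was the same for 95.9% to 100% of the gains and for 92.8% to 99.2% of the losses. A difference of 0.7 or more in that direction was found for 42.4% to 61.7% of the gains and 45.3% to 62.5% of the losses. Over all features with a wild-type mean of 13 or more on the 4 arrays, whatever their difference, the direction was the same for 58.1% to 67.02% of those higher and 63.4% to 71.3% of those lower. A difference of 0.7 or more in that direction was found for 2.31% to 4.62% and 4.19% to 6.40% of them. Much of this background lay near 0, with quartiles of -0.17 and 0.11 over the bright features on all arrays. Higher shares among features chosen for a difference of 0.7 or more are thus in part set by that choice. The limits themselves were chosen with earlier results of these data known, so the arrays left out are not independent of the choice. The 9 combinations share arrays and are not independent.

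**Figure D5:**
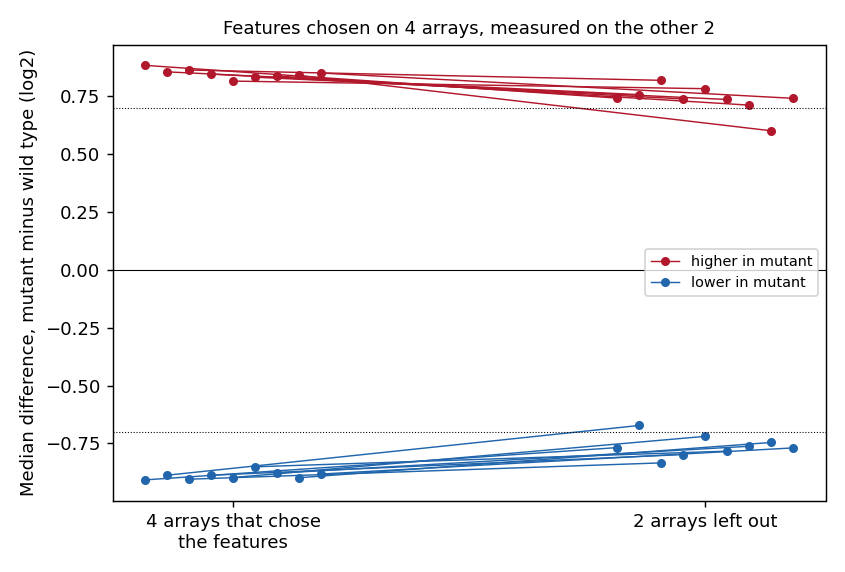
Median difference between mutant and wild type (log2, vertical axis) of features chosen on 4 arrays, shown on those 4 arrays (left) and on the 2 arrays left out (right), 1 line for each of 9 combinations, gains in red and losses in blue, dotted lines at 0.7 and -0.7. The medians move toward 0, to between 0.60 and 0.82 for gains and between -0.83 and -0.67 for losses.

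Some members stood next to each other in the order of identifiers. There were 7 pairs of neighbouring members, 4 of 2 losses, 2 of 2 gains and 1 of a gain and a loss. A direction was thus shared in 6 of 7 (85.7%). It was shared in 53.5% of the 3197 pairs of neighbouring bright features, which were taken whatever their difference. Members were chosen for the size of their difference, so the share in member pairs cannot be judged against that of bright pairs. The share to expect from the members' own balance of losses and gains was not computed. The number of member pairs to expect from random order was not computed. Neighbouring identifiers can be transcripts of 1 gene, so such a pair need not count 2 genes. Among the 221 neighbours of losses that are not members, 139 (62.9%) were lower in the mutant, with a median difference of -0.08. Among the 99 such neighbours of gains, 47 (47.5%) were higher, with a median of -0.02. Over the 320 pairs of a member and a non-member, 58.1% shared a direction, against 54.3% over all neighbours in the table. The shares of all features lower or higher in the mutant are not given here. The non-member neighbours were of any level. The median difference was -0.03 over all features and -0.02 over the bright ones, so the background itself leaned slightly down.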

How the data were processed

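Total RNA carried the dye Cy3, and NimbleGen arrays with probes of 60 bases were used, 1 colour to an array. NimbleScan 2.4 extracted the images per the labels' protocols. The submitters' processing notes name RMA, without version or settings. The authors deposited 1 value per feature, taken as log2, since the values ran from 5.30 to 15.99 and were not centred per feature. For the build and the annotation release, the sources used here have no entry. No detection calls, scan dates or slides were used.

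Groups came from the sample titles. limma 3.58.1 in R 4.3.3 (lmFit, eBayes, no filter) was fitted to all 15473 features of 6 arrays, two-sided, with Benjamini-Hochberg adjustment and a threshold of 0.05. In data simulated for this comparison, with 200 changed features among 15473, the share recovered was 42% at a change of 0.7, 56% at 1, and 88% at both 1.5 and 2. The changed features were drawn at random over all levels. Changes of 0.7 and 1.5 were all gains and those of 1 and 2 all losses. Size and direction can therefore not be told apart in these shares. The simulated fit called 144 features, 7 of them unchanged, while the fit to the real values called 2376. The shares recovered therefore do not measure how well changes of bright features were found here. Names came from transcript identifiers in RefSeq's gene table (Release 6 plus ISO1 MT), which matched 44 features.

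The members, limits and 16 gene lists were chosen with earlier results of these data known. The rule for named genes was up to 12 named members in each direction, list members, the 2 largest unnamed members in each direction, and named features just outside the limits. No list had a named member. Deviations from the group means correlated at -0.036, -0.058 and -0.026 between arrays of the same number over all features, and at 0.036, 0.19 and -0.021 over the bright features, so not every pair exceeded 0.1 and arrays were treated as unpaired. No array was a copy of another, with 6 identical values at most in a pair. Alternatives were other scalings, limits, variance models, array weights, a replicate block and single arrays left out. The reading of left-out arrays was added after the data were seen. With 3 arrays per genotype, precision is limited throughout.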

Additional observations from a re-analysis of the deposited data

How the results depend on the processing

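The 167 members (52 higher, 115 lower) stayed within 1.5 times in each count under quantile normalization (54 higher, 112 lower), median centring (44 and 133), removal of features above a mean of 15, and with overlapping groups allowed. Other limits moved the counts by their own construction. A level limit of 12 gave 291 features (109 higher, 182 lower) and one of 14 gave 62 (3 and 59). A lower difference limit of 0.5 gave 411 (141 and 270) and one of 1 gave 56 (18 and 38). Judging the level on the mutant mean gave 124 higher and 57 lower, on the mean of both groups 83 higher and 92 lower, and on both group means 109 features, 52 higher and 57 lower. Without single arrays the members numbered 166 to 186, with 47 to 63 higher and 113 to 127 lower. The limma calls among the fixed members ran from 133 to 150 without single arrays (41 to 48 higher, 92 to 102 lower). Over all features, 2376 passed limma, 1692 to 2178 without single arrays, 1148 among features at or above the median level and 1240 at an adjusted p of 0.01. With the replicate block, 148 members passed limma (48 higher, 100 lower) and 1939 features in all. The median difference was 0.86 to 0.91 for the gains and -0.93 to -0.87 for the losses without single arrays, and 0.74 and -0.77 as the median over the arrays left out. The 4 members given by identifier kept direction and limma call in all 9 alternatives run for each. Both losses among them passed the upper limit of 2 in some alternatives and would not be members there. FBtr0081210 was at -2.02 with median centring and at -2.05 without mutant replicate 1. FBtr0089292 was at -2.26 without mutant replicate 3. The NaPi-III call was lost in 7 of 9, and that of the Mettl5 and CG42374 transcript in 5 of 9. SuUR was not called (limma adjusted p = 0.055) and gained a call in 1 of 9, without mutant replicate 3, at a difference of 0.69. None of these 7 features changed direction. No alternative was run for gene lists, as no member had a name. Signal over background and the scanner ceiling were not measured and may limit what gains could be seen.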
